A study of Homo sapiens with 6 samples.

Results

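The genes of the G1 restriction point were followed in H2087-LCC cells: the D cyclins CCND1, CCND2 and CCND3, the E cyclins CCNE1 and CCNE2, the kinases CDK2, CDK4 and CDK6, the retinoblastoma gene RB1 and the phosphatase gene CDC25A. The members were the rows of the deposited expression table with these symbols, which gave 10 of its 21293 genes, and 9 of the 10 passed the filter on low values that left 14395 genes for testing. H2087-LCC is a population derived from the human lung adenocarcinoma (LUAD) line H2087, and the labels give its genotype as a dormant metastatic derivative. Poly(A) RNA was sequenced from 3 groups of 2 libraries, all of this 1 population with no other alteration named. The first group had received SB505124 (SB), a blocker of TGFβ receptor kinase activity, for 3 days, the second TGFβ for 3 days and the third TGFβ for 7 days. SB sets a baseline without TGFβ signaling, so each comparison with SB asks how active TGFβ signaling changed these genes. SB was not sequenced at 7 days, so 7 days of TGFβ and the longer time in culture cannot be told apart. By the study's account the replicates are technical, so the errors and p-values may cover only technical spread and not the spread between cultures.

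A dividing cell commits to DNA replication late in G1. D cyclins, which respond to growth factor signals, bind CDK4 or CDK6 and phosphorylate RB, the RB1 product that holds E2F transcription factors in check, and cyclin E with CDK2 completes this phosphorylation. CDC25A removes inhibitory phosphates from CDK2, and TGFβ is known in epithelial cells for blocking this step through CDK inhibitors and through lower CDC25A and MYC.

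RefSeq promoter windows, here the 250 bases before a gene's start on build GRCh38.p14, were matched for 6 of the 10 members. The windows of CDK4 (chr12:57752311-57752560, minus strand) and CDC25A (chr3:48188418-48188667, minus strand) are shown because, of the 6 members with a window, these were the genes that fell after 7 days of TGFβ. Capitals mark the E-box CACGTG in CDK4, a site type bound by MYC and related factors, and the E2F-type motif TTTGGCGC in CDC25A. Each runs 5′ to 3′ on the gene's strand.
CDK4: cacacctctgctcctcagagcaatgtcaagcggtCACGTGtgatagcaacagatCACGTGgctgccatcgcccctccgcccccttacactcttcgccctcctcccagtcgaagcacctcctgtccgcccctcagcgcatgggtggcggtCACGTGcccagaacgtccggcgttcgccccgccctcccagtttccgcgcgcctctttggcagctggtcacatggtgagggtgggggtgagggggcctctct
CDC25A: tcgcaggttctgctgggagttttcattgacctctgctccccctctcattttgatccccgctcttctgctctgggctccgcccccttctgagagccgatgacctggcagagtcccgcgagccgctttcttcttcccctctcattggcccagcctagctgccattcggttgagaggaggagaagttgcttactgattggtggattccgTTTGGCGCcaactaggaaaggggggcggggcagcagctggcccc
CDK4 held 3 E-boxes, which begin 216, 196 and 101 bases before the start, and CDC25A held 1 E2F-type motif, which begins 44 bases before it. On both strands and over 300 bases (250 before to 50 after the start), an E-box occurred in 7.43% of 27305 promoter windows and one of the E2F-type motifs TTTCCCGC, TTTCGCGC, TTTGCCGC and TTTGGCGC in 3.33%. Of the E2F target genes described further on, 17 had a window, and 11 of these held an E2F-type motif. The AP-1 motif (TGACTCA or TGAGTCA, in 4.92% of windows) and the SMAD motif (GTCTAGAC, in 0.201%) matched none of the 6 members. Motifs this rare would be absent from most sets of 6 windows, so no conclusion is drawn from their absence. Shorter forms of the SMAD motif were not searched. CDK6 had 1 E-box after its start, and the windows of CCND3, CCNE1 and RB1 had no match. The RB1 window lies inside the gene and the CCND3 window is that of 1 of its listed starts. These matches are letters in a window and were not tested for binding.

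The deposited values are counts that the authors scaled for library size and rounded to whole numbers, called normalized counts here. They summed to between 34306283 and 36340734 per library. From the spacing of low values, 1 read was worth between 0.896 and 1.10 normalized counts, for an estimated 32000000 to 40000000 reads per library; intervals from depth cover counting error only. All 8 lung epithelial markers were detected, but most of them differed from SB. In the limma comparisons described below, 5 of the 8 were lower and 1 higher at 3 days and again at 7 days. That is 75% at an adjusted p under 0.05, beside 29.0% and 54.5% of all tested genes. EPCAM had 10180 and 9106 normalized counts in SB and 2988 and 3277 at 7 days. NKX2-1 went from 2784 and 2908 to 853 and 857, and KRT7 from 5860 and 6183 to 13979 and 11230. KRT8, at 33341 to 42692, showed no such change. The E-cadherin gene CDH1 was at 371 and 635 in SB and at 9 to 28 under TGFβ. Of 9 markers of immune, endothelial and fibroblast cells, PTPRC, CD3E, LYZ and DCN were at 5 or less in every library, and the sum of the 9 was 277 and 333 in SB, 354 and 431 at 3 days and 663 and 527 at 7 days. Without COL1A1 that sum was 81 and 83, 87 and 94, and 82 and 70. Single markers moved within these sums. COL1A1 went from 196 and 250 in SB to 581 and 457 at 7 days. The endothelial marker PECAM1 was at 41 and 36 in SB, 61 and 67 at 3 days and 56 and 53 at 7 days. CDH5, also endothelial, was at 14 and 20, 1 and 5, and 2 and 0. VWF and PDGFRA were at 16 or less. In bulk RNA, fewer cells of a type and less RNA per cell cannot be told apart, so a fall of a cell cycle gene can be either.

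Groups were compared on log2(normalized count + 1) with limma in a fit of all 6 libraries, and a gene was called at a Benjamini-Hochberg adjusted p under 0.05. A fold change on this scale understates changes of low genes. After 3 days of TGFβ, CCND1 and CDK6 rose and CDK4 fell, with no call for the other 6 tested members. That is 3 of 9, beside 29.0% of all tested genes called in the same comparison (14.9% higher and 14.0% lower). Equal library totals gave 1 higher and 2 lower. The count was 1 without the first 3-day library or without either 7-day library, and 2 without the first SB or the second 3-day library. After 7 days, CCND1 was the member that rose, and CCNE2, CDK2, CDK4 and CDC25A fell, 5 of 9 beside 54.5% of all tested genes (27.7% higher and 26.9% lower). Between 7 days and 3 days of TGFβ, CCNE2, CDK4, CDK6 and CDC25A fell and none rose, 4 of 9 beside 33.2% of all tested genes (17.0% higher and 16.2% lower). That count was 6 when either SB library was left out, 3 for the second 3-day library, 2 for the first 7-day library and 1 for the first 3-day or the second 7-day library.

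The share of members called was thus close to that of all genes at 3 days and 7 days. The members' median log2 fold change was 0.04 at 3 days, -0.17 at 7 days and -0.28 between 7 and 3 days, beside -0.02, -0.00081 and 0.02 for all tested genes. The values of a TGFβ group and SB did not overlap for 6 of 9 members at 3 days and 6 of 9 at 7 days, beside 63.2% and 77.5% of all tested genes. Between the TGFβ groups they did not overlap for 8 of 9, beside 69.1%. Both comparisons with SB share the SB libraries.

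**Figure D1:**
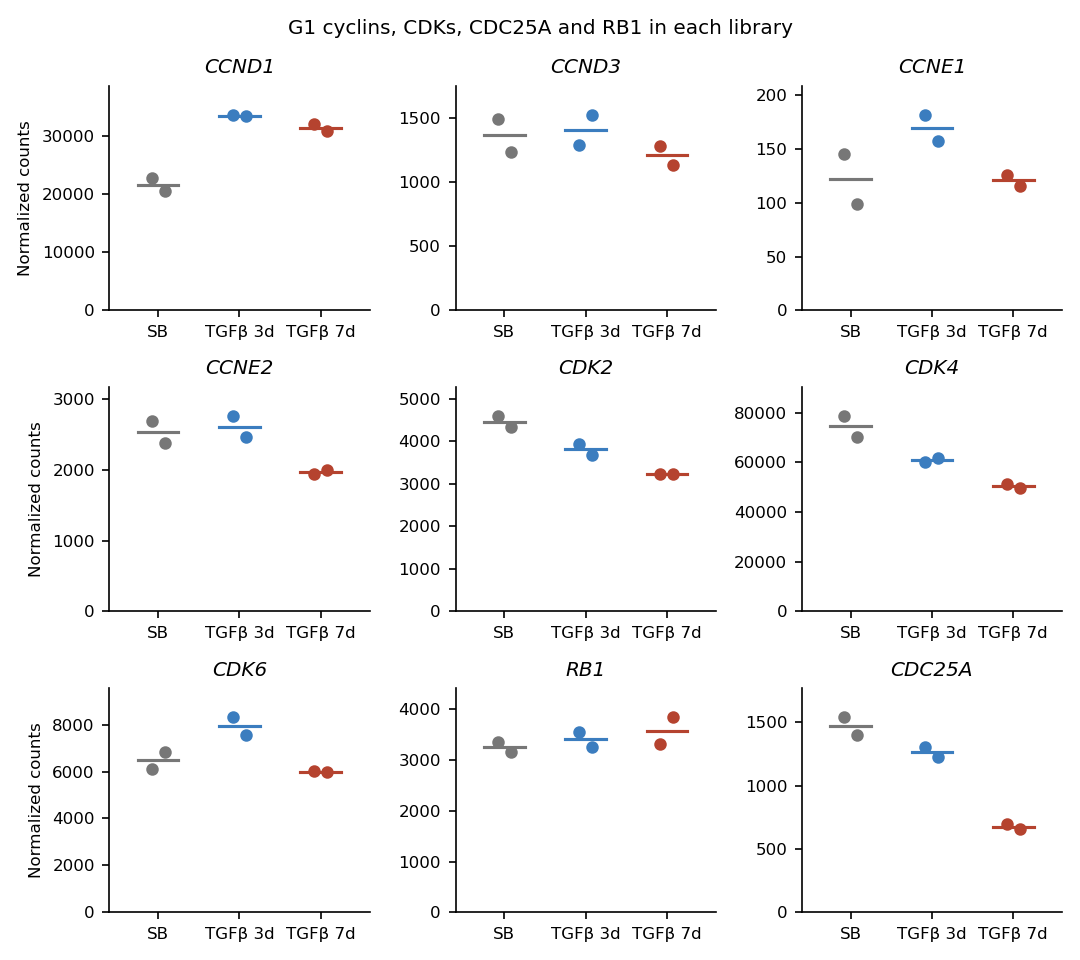
Normalized counts of the 9 detected members in each library (vertical axes, a scale of its own in each panel) for SB, TGFβ 3d and TGFβ 7d, with points for single libraries and bars for group means. CCND1 lies above SB in the 4 TGFβ libraries, CDC25A drops to 698 and 654 at 7 days. CCND2, at 0 throughout, is not drawn.

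Among the D cyclins, CCND1 was the member that TGFβ raised at both times. CCND1 (cyclin D1), on chr11:69455924-69469242 of GRCh37, plus strand, had 22730 and 20496 normalized counts in SB, 33577 and 33498 after 3 days and 32017 and 30799 after 7 days of TGFβ. All 4 TGFβ libraries were above both SB libraries, and the 7-day values were below the 3-day ones. The log2 fold change was 0.64 at 3 days (SE 0.080, a 1.55-fold rise, limma adjusted p = 1.00e-04) and 0.54 at 7 days (SE 0.080, adjusted p = 0.000149). The difference between 7 and 3 days was -0.09, with a 95% interval of -0.27 to 0.08 and an adjusted p of 0.391. CCND1 stayed called against SB at both times under each of 16 alternatives that kept the threshold on the adjusted p alone, with a largest adjusted p of 0.0101 at 3 days and 0.00751 at 7 days. Requiring in addition an absolute log2 fold change over 1, which is not among these 16, left no member called at 3 days or between 7 and 3 days, and CDC25A alone at 7 days. CCND1 shares 497 exon bases with LTO1 (also named ORAOV1) on the other strand, and the library kit does not mark strand. LTO1 had 1027 and 934 normalized counts in SB, 949 and 945 at 3 days and 804 and 748 at 7 days.

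CCND3 (cyclin D3), on chr6:41902672-42018095, minus strand, had 1493 and 1237 normalized counts in SB, 1286 and 1519 at 3 days and 1277 and 1135 at 7 days. The 3 groups lay in a common range, except that both 7-day values were under both 3-day values. Its log2 fold change was 0.04 at 3 days (95% interval -0.23 to 0.31, adjusted p = 0.843) and -0.17 at 7 days (-0.45 to 0.10, adjusted p = 0.258), so a change of the size seen for CCND1 was outside its interval at both times. CCND2 (cyclin D2), on chr12:4378937-4414519, plus strand, was at 0 in all 6 libraries, which allows up to 3 reads, or 2.69 to 3.295 normalized counts, per library. Per kilobase of the canonical transcript, CCND1 made up 87.9% and 88.8% of the D cyclin total in SB, 92.6% and 91.3% at 3 days and 92.3% and 92.8% at 7 days, with CCND3 as the rest. On the length of all annotated exons, CCND1 was 94.9% and 95.2% in SB and CCND3 5.15% and 4.75%, in place of 12.1% and 11.2%, so the CCND3 share depends on the length used. The log2 ratio of CCND1 to CCND3 within a library rose by 0.60 at 3 days and 0.72 at 7 days and did not overlap with SB. The ratios are given as values with no p, since an exact permutation test cannot go below 0.333 with 2 libraries a group.

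Of the E cyclins, CCNE2 was called at 7 days and CCNE1 in no comparison, and both had lower values at 7 days than at 3 days. The difference between the genes was not tested. CCNE1 (cyclin E1), on chr19:30302898-30315219, plus strand, had 145 and 99 normalized counts in SB, 181 and 157 at 3 days and 126 and 115 at 7 days. Both 3-day libraries were above all others, while 7 days lay between the SB values. The log2 fold change was 0.49 at 3 days (SE 0.210, 95% interval 0.03 to 0.95), which missed the threshold (adjusted p = 0.104), and 0.01 at 7 days (-0.45 to 0.47, adjusted p = 0.981). Between 7 and 3 days it was -0.48 (-0.94 to -0.02, adjusted p = 0.0978). Without the first SB library CCNE1 was called at 3 days, at 0.76 (adjusted p = 0.0204), and the difference between 7 and 3 days was called without the first SB library (adjusted p = 0.0428), without the second (0.0396) and in a fit of the 4 TGFβ libraries alone (0.0379).

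CCNE2 (cyclin E2), on chromosome 8, fell at 7 days but not at 3. It had 2681 and 2382 normalized counts in SB, 2753 and 2456 at 3 days and 1945 and 1998 at 7 days. The 7-day libraries were below the other 4, and SB and 3 days overlapped. Its log2 fold change was 0.04 at 3 days (95% interval -0.17 to 0.26, adjusted p = 0.792), -0.36 at 7 days (SE 0.099, adjusted p = 0.0089) and -0.40 between 7 and 3 days (adjusted p = 0.00977). The call against SB was lost without the first SB library (-0.27, adjusted p = 0.058) or the first 7-day library (-0.34, 0.0633). The call against 3 days was lost on leaving out the first 3-day library (-0.32, 0.0976), the first 7-day library (-0.38, 0.0744) or the second (-0.42, 0.0576), and in a fit without the trend on mean expression (0.0548). CCNE2 shares 1629 exon bases with INTS8 on the other strand, and the library kit does not mark strand. INTS8 had 2670 and 2822 normalized counts in SB, 2736 and 2578 at 3 days and 2810 and 3067 at 7 days, and its 7-day log2 fold change was 0.10 (adjusted p = 0.386). Per kilobase of the canonical transcript, CCNE2 was between 91.7% and 94.6% of the E cyclin total in every library. On the length of all annotated exons it was between 89.5% and 93.1%.

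All 3 kinases had lower values at 7 days than at 3 days. Against SB, CDK4 fell at both times and CDK2 at 7 days, with 3-day values of -0.28 and -0.23 on the log2 scale, and CDK6 rose at 3 days and was just under SB at 7 days. CDK4, the D cyclin partner on chr12:58141510-58149796, minus strand, had 78532 and 70334 normalized counts in SB, 60242 and 61785 at 3 days and 51300 and 49508 at 7 days. The 3 groups did not overlap, and each later group was lower. The log2 fold change was -0.28 at 3 days (SE 0.082, adjusted p = 0.0224) and -0.56 at 7 days (SE 0.082, 95% interval -0.74 to -0.38, adjusted p = 0.000138), or 0.678 times SB. The 7-day call held under the same 16 alternatives (largest adjusted p = 0.0071).

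The call of CDK4 at 3 days was lost under 8 of the 16. These were the fits without the first SB library (-0.205, adjusted p = 0.07), the first 3-day library (-0.27, 0.136), the second 3-day library (-0.30, 0.0764), the first 7-day library (-0.28, 0.0613) or the second (-0.28, 0.0626), with no filter on low values (0.0707), without the trend (0.0989) and with only the 4 libraries compared (0.0615). Between 7 and 3 days CDK4 was at -0.28 (adjusted p = 0.0237), which was lost without the first 3-day library (-0.29, 0.089), the second (-0.26, 0.124), the first 7-day library (-0.30, 0.115) and the second (-0.25, 0.193), with no filter (0.0707) and without the trend (0.0965). CDK4 shares 1369 exon bases with TSPAN31, which lies on the other strand, so unstranded reads from these bases cannot be told apart. TSPAN31 moved the other way, from 1843 and 2389 normalized counts in SB to 3110 and 2817 at 3 days and 4714 and 4920 at 7 days (log2 fold change 0.50, adjusted p = 0.00784, and 1.20, 5.81e-06).

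CDK6, the other D cyclin partner, on chr7:92234235-92465887, minus strand, had 6127 and 6851 normalized counts in SB, 8311 and 7549 at 3 days and 6016 and 5970 at 7 days. The 3-day libraries were the highest, and the 7-day libraries lay just under SB. CDK6 changed by 0.29 on the log2 scale at 3 days (SE 0.088, 1.22-fold, adjusted p = 0.0284), -0.11 at 7 days (95% interval -0.31 to 0.08, adjusted p = 0.301) and -0.40 between 7 and 3 days (SE 0.088, adjusted p = 0.00524). The 3-day rise was not called without the first SB library (0.21, adjusted p = 0.12), the first 3-day library (0.22, 0.229), the first 7-day library (0.29, 0.0574) or the second (0.29, 0.0588), nor with equal library totals (0.23, 0.0654), with no filter (0.0767), without the trend (0.112) and with only the 4 libraries compared (0.056). The difference between 7 and 3 days was lost on leaving out the first 3-day library (-0.33, 0.0588) or the second 7-day library (-0.40, 0.0511).

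CDK2, the partner of cyclin E, on chr12:56360565-56366573, plus strand, had 4591 and 4339 normalized counts in SB, 3950 and 3669 at 3 days and 3234 and 3240 at 7 days. On the other strand it shares 89 exon bases with PMEL (29 to 54 normalized counts) and 565 with a noncoding gene without deposited values. CDK6 shares 86 and CCND3 24 such bases with noncoding genes. As for CDK4, the 3 groups of CDK2 values did not overlap and each later group was lower. It changed by -0.46 on the log2 scale at 7 days (SE 0.085, 0.725 times SB, adjusted p = 0.000676), a call that held under the same 16 alternatives. At 3 days it was -0.23 (95% interval -0.42 to -0.04, adjusted p = 0.0630) and of the 16 alternatives equal library totals called it (-0.285, adjusted p = 0.0184). Between 7 and 3 days it was -0.23 (adjusted p = 0.0530) and was called under 6 alternatives, among them without the first SB library (0.0362) and without the second (0.0356).

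CDK4 had the highest level of the members on any length used. Per kilobase of canonical transcript its mean was 39910 normalized counts in SB and 27030 at 7 days, followed by CCND1 at 5100 and 7411 and CDK2 at 1993 and 1445. CCNE2, RB1, CCND3, CDK6 and CDC25A lay between 382.5 and 946.7 in SB, CCNE1 was at 62.44 and CCND2 at 0. Within that middle group, RB1 (701.3 and 659.8) and CCND3 (736.9 and 610.6) overlapped in SB, so their order is not fixed, while CDK6 was under both (525.3 and 587.4). At 3 days CDK6 (712.6 and 647.3) overlapped with both. The other neighbours in the SB order did not overlap. Counting all annotated exons in place of the canonical transcript kept CDK4, CCND1 and CDK2 first and CCNE1 last of the detected members, and moved CCND3 and CDK6 within the middle group. CDK6 was between 1.23% and 2.16% of the CDK4 and CDK6 total per kilobase of canonical transcript in every library, and between 1.93% and 3.37% on all annotated exons.

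**Figure D2:**
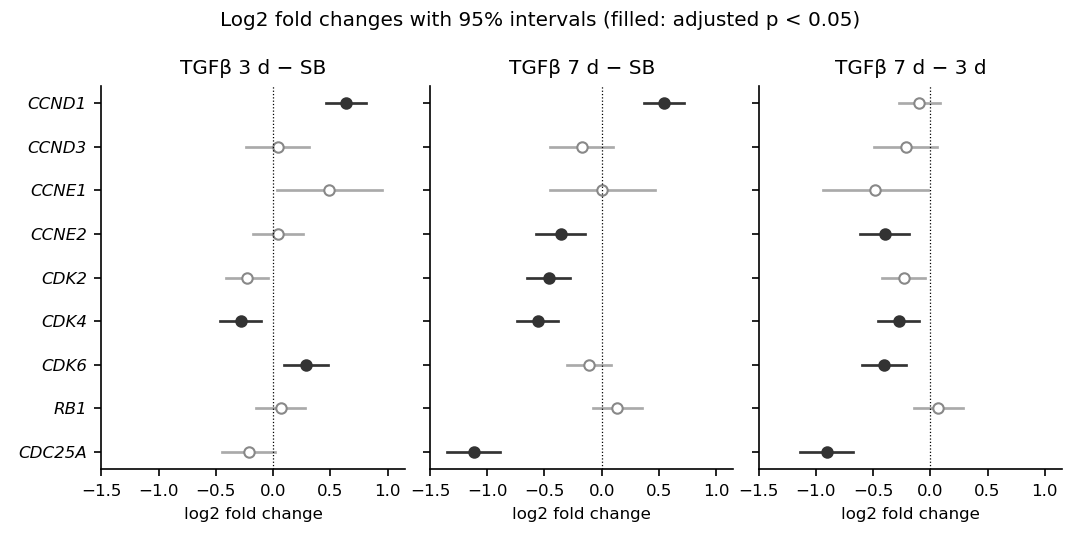
Log2 fold changes of the 9 tested members with their 95% intervals in the limma fit, for TGFβ 3 days against SB, 7 days against SB and 7 days against 3 days (horizontal axes). Filled points have an adjusted p under 0.05. CDC25A at 7 days (-1.12) is the largest change, and the intervals of RB1 and CCND3 include 0 in each comparison.

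RB1, which encodes the pocket protein these kinases phosphorylate, showed no called change at the RNA level. It lies on chr13:48877880-49173572, plus strand, and had 3344 and 3146 normalized counts in SB, 3537 and 3258 at 3 days and 3309 and 3833 at 7 days. The 3 groups overlapped. The log2 fold change was 0.07 at 3 days (95% interval -0.15 to 0.28, adjusted p = 0.656) and 0.13 at 7 days (-0.08 to 0.35, adjusted p = 0.261), and the interval at 7 days excludes a fall of the size of CDK4 or CDK2.

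CDC25A fell the most of the members, and most of its fall came after day 3. It lies on chr3:48198636-48229907, minus strand, and had 1539 and 1402 normalized counts in SB, 1308 and 1228 at 3 days and 698 and 654 at 7 days. The 3 groups did not overlap, and the 7-day libraries were far below the other 4. The log2 fold change was -0.21 at 3 days (SE 0.105, 95% interval -0.44 to 0.02), which was not called (adjusted p = 0.153). At 7 days it was -1.12 (SE 0.105, 95% interval -1.35 to -0.89, 0.460 times SB, adjusted p = 4.03e-06), and between 7 and 3 days it was -0.91 (SE 0.105, adjusted p = 0.000116). Both of these calls held under the same 16 alternatives, with a largest adjusted p of 0.000921 at 7 days and 0.00933 between 7 and 3 days.

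Ratios within a library do not depend on its scaling. The log2 ratio of CDK4 to CDK6 was 3.68 and 3.36 in SB, 2.86 and 3.03 at 3 days and 3.09 and 3.05 at 7 days, lower in all 4 TGFβ libraries. The ratio of CCND1 to CDK4 was -1.79 and -1.78 in SB, -0.84 and -0.88 at 3 days and -0.68 and -0.68 at 7 days, a change of 0.92 and 1.10. This ratio and that of CDC25A to CDK2 were chosen after their values were seen. CDC25A to CDK2 stood at -1.58 and -1.63 in SB, -1.59 and -1.58 at 3 days and -2.21 and -2.31 at 7 days, so it differed from SB at 7 days only. The ratio of CCND1 to RB1 rose by 0.57 at 3 days and 0.41 at 7 days, and that of CCNE1 to CCNE2 by 0.45 and 0.36.

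**Figure D3:**
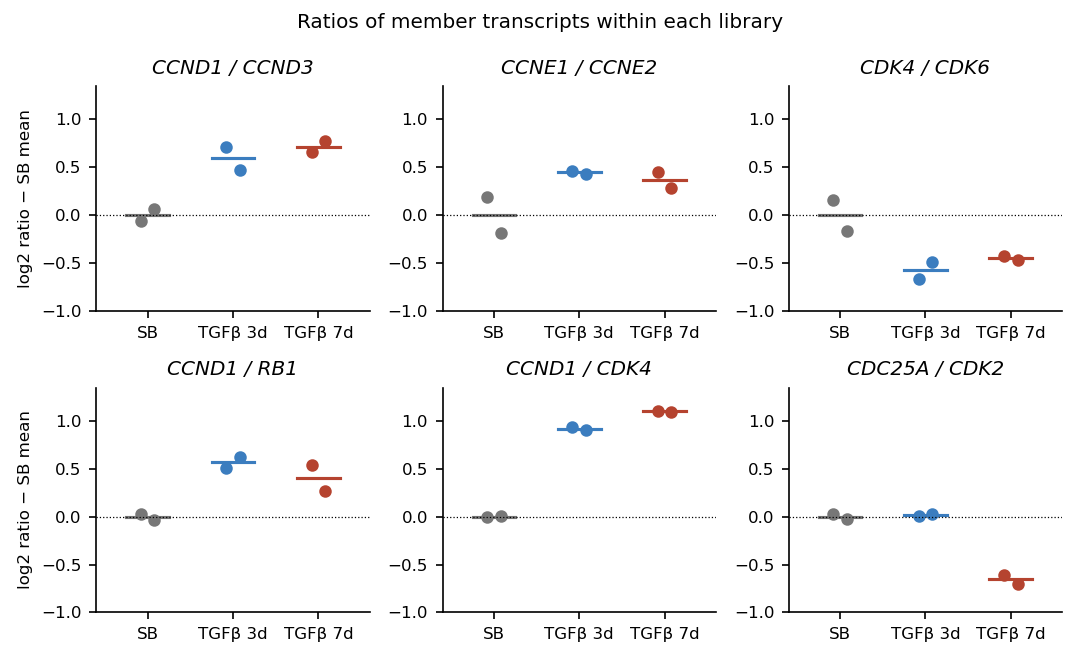
Log2 ratios of member pairs within each library, less their SB mean (vertical axes), for SB, TGFβ 3d and TGFβ 7d, with points for libraries and bars for group means. CCND1 to CDK4 separates SB from the 4 TGFβ libraries, which lie 0.92 (3 days) and 1.10 (7 days) above it on average, and CDC25A to CDK2 separates the 7-day libraries from the other 4.

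The other genes of the pathway were described by lists. Of 12 RB relatives, E2F and DP factors, 2 rose and 4 fell at 3 days, and 3 rose and 7 fell at 7 days. Their median log2 fold change was -0.42 after 7 days. In all, 50% of this list was called at 3 days and 83.3% at 7 days, beside 29.0% and 54.5% of all tested genes. The 3-day count of 6 was 2 without the first library of SB or of 3 days, and 4 without the second of 3 days or of 7 days. E2F2, an activating E2F, had 437 and 558 normalized counts in SB, 191 and 175 at 3 days and 95 and 103 at 7 days (log2 fold change -1.43, adjusted p = 5.95e-05, and -2.31, 4.96e-07). E2F7, a repressive E2F, went up from 6151 and 4634 in SB to 12633 and 11956 at 3 days and 12023 and 11837 at 7 days (1.20, adjusted p = 1.02e-05, and 1.16, 6.11e-06). Neither gene's TGFβ values overlapped with SB. E2F1 fell (-0.40 and -0.87) and TFDP2, which encodes an E2F partner, rose (0.35 and 0.83).

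Of 20 E2F target genes of S phase entry, 13 fell and 0 rose at 3 days and 20 fell at 7 days, with a median of -0.92 at 7 days, beside 14.0% and 26.9% of all tested genes lower. MYBL2, a transcription factor of the cell cycle, went from 14505 and 14930 normalized counts in SB to 8443 and 10063 at 3 days and 5235 and 4428 at 7 days (-0.67 and -1.61). CDT1, which licenses replication origins, and TK1, which makes thymidine nucleotides, were at -1.61 and -1.59 at 7 days, and TYMS, the thymidylate synthase gene, at -1.25. All 20 were called at 7 days with any 1 library left out. Of the 6 proliferation markers 5 fell at 3 days (3 without either 3-day library) and 6 at 7 days, with BUB1 at -1.23 and TOP2A at -0.84, so the falls of CDC25A, CDK2 and CDK4 stood beside lower proliferation marker RNA. The part of a changed share of dividing cells in the member values was not tested.

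Of 10 genes that activate CDKs or set their inhibitory phosphorylation, CDC25A left out, 1 fell at 3 days and 7 fell at 7 days. None rose at either time. The 10% and 70% called, all lower, compare with 14.0% and 26.9% of all tested genes lower. In either direction, 29.0% and 54.5% of all tested genes were called. PKMYT1, an inhibitory kinase of CDK1, had 280 and 261 normalized counts in SB, 125 and 203 at 3 days and 103 and 56 at 7 days. The 7-day log2 fold change was -1.82 (adjusted p = 0.000215), and that at 3 days, -0.76, was not called (0.0653). CKS1B and CKS2, small CDK-binding proteins, were at -0.70 and -0.55 at 7 days and the phosphatase CDC25C at -0.54. The 3-day count was 0 when the first 3-day library was left out and 2 for the second 3-day or either 7-day library. Of the 7 CDK inhibitors, 2 rose and 2 fell at 3 days (57.1% called, beside 29.0%, and 3 called in all without the first 3-day library), and 3 rose and 2 fell at 7 days (71.4%, beside 54.5%, and 3 called in all without the first 7-day library), with CDKN2B (p15) at 2.05 and CDKN1A (p21) at 1.60. CDKN2C (p18), which inhibits CDK4 and CDK6, fell by 0.91 on the log2 scale, and CDKN2A (p16 and ARF) was at 0.27 (adjusted p = 0.038). CDKN1B (p27), named after its values were seen, fell at 3 days (-0.38, adjusted p = 0.0112) and was at -0.13 at 7 days (adjusted p = 0.273).

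Of 11 genes of cyclin and CDK inhibitor degradation, 2 rose and 1 fell at 7 days, 27.3% called beside 54.5% of all tested genes. CRYAB, a small heat shock protein gene named after its values were seen, was at 0 in both SB libraries, 12 and 10 at 3 days and 30 and 37 at 7 days, so its fitted fold change depends on the pseudocount. The gene that fell was SKP2, which targets the inhibitor p27 for degradation, with 2926 and 2935 normalized counts in SB, 2054 and 1911 at 3 days and 1701 and 1806 at 7 days (-0.57, adjusted p = 0.00061, and -0.74, 3.34e-05). Of 10 atypical and later cyclins, 3 fell at both times and 0 rose: CCNA1, CCNF and CCNB2, at -0.96, -0.85 and -0.79 at 7 days. The 30% called, all lower, compares with 14.0% of all tested genes lower at 3 days and 26.9% at 7 days. In either direction, 29.0% and 54.5% of all tested genes were called.

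Of 12 upstream inputs to CCND1, 2 rose and 1 fell at 3 days (5 called in all without the first SB library), and 1 rose and 5 fell at 7 days. The shares called in either direction, 25% and 50%, were near those of all tested genes, 29.0% and 54.5%. By direction at 7 days, 8.33% of the list was higher and 41.7% lower, beside 27.7% and 26.9% of all tested genes. MYC had 16285 and 13846 normalized counts in SB, 14016 and 14898 at 3 days and 6907 and 6614 at 7 days, a log2 fold change of -0.06 (adjusted p = 0.691) and -1.15 (9.91e-07). FOSL1, an AP-1 subunit, had 17421 and 10815 in SB, 12415 and 13592 at 3 days and 4712 and 4433 at 7 days (-0.08, adjusted p = 0.757, and -1.59, 9.21e-06). The values of both genes at 3 days overlapped with SB and at 7 days were below all other libraries, as those of CDC25A were at 7 days. JUN, another AP-1 subunit, fell at both times (-0.65 and -0.75), and ETS2 at 7 days (-0.68), while CCND1 stayed above SB.

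**Figure D4:**
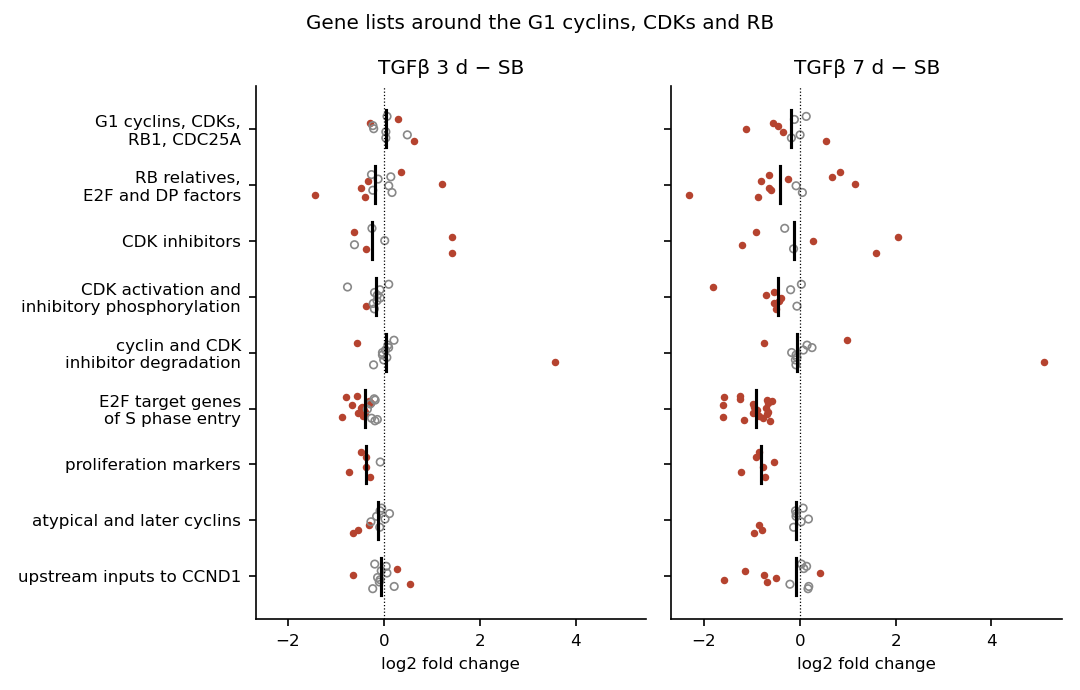
Log2 fold changes against SB of each tested gene (points) in the members and the pathway lists, in 1 panel for TGFβ 3 days and 1 for 7 days, filled where called and with a bar at the median. The E2F target genes lie below 0 at 7 days with a median of -0.92, and the members lie on both sides of 0. The point farthest right is CRYAB.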

How the data were processed

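The authors sequenced poly(A) RNA from H2087-LCC cells, mapped it to hg19, counted reads per gene and scaled the counts by library size. The submitters' processing notes name FastQC 0.11.5, HTSeq 0.6.1p1 and DESeq2 3.4. The values deposited are these normalized counts, rounded, so they were recorded under the unit score and a count test was not used. Genes averaging 10 or more were fitted on log2(value + 1) with limma 3.58.1 in R 4.3.3 (empirical Bayes with a trend, group as the only term, 3 residual degrees of freedom), adjusted by Benjamini-Hochberg over all 14395 genes at 0.05. The fit was also run on simulated counts with the same spread for every gene and independent libraries. Real genes differ in spread, so that run does not measure the error rate in these data. Positions and lengths came from GENCODE on GRCh37, and figures from matplotlib 3.10.9 in Python 3.11.15. The members and lists were chosen with earlier results of these data known. From each list at most 4 genes were named, those with the largest called change at 7 days and a mean of at least 100; CRYAB and CDKN1B were named outside this rule, after their values were seen. For each member the gene with the nearest profile was found over the 6 libraries. The alternatives were other pseudocounts, filters and scalings, no trend, fewer libraries, a replicate block, a fold threshold and each library left out. The all-exon length was added after seeing the data.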

Additional observations from a re-analysis of the deposited data

Results flagged for a closer look

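For 4 members limma called a difference between 7 and 3 days of TGFβ, with both times set against the same 3-day SB libraries. SB was not sequenced at 7 days, so this difference cannot be told apart from one due to the longer time in culture. The log2 difference was -0.40 for CCNE2 (adjusted p = 0.00977), -0.28 for CDK4 (0.0237), -0.40 for CDK6 (0.00524) and -0.91 for CDC25A (0.000116). CDK6 lay above SB at 3 days and just under it at 7 days, whereas CDK4 and CDC25A were under SB at both times. The call of CDC25A held with any 1 library left out, and those of CCNE2, CDK4 and CDK6 were each lost without at least 1 library, as given with their values above.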

How the results depend on the processing

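Of the member values under the alternatives, 380 kept their direction and their side of the threshold, 30 lost a call, 11 gained one and 11 reversed in sign. Members called at 3 days numbered 1 with no filter, 1 without the trend, 1 with only the 4 libraries compared, 0 when a change over 1 in absolute log2 was also required and 1 to 3 with 1 library left out. At 7 days the fold threshold left 1, and between 7 and 3 days it left 0, no trend left 2 and leaving out 1 library gave 1 to 6. Over all genes the fold threshold gave 1267, 2400 and 940 calls at 3 days, at 7 days and between them. Leaving out 1 library gave 2608 to 3894 calls at 3 days and 2294 to 5570 between 7 and 3 days, where no filter gave 3042 and no trend 3122. Reversals were among values that were not called. CCND3 at 3 days was at -0.0152 with equal library totals and at -0.0951 to 0.176 with 1 library left out, and CCNE2 at 3 days at -0.0145 and at -0.0441 to 0.126. CCNE1 at 7 days was at -0.000742 with median-of-ratios size factors, -0.041 with equal totals and -0.266 to 0.279 with 1 library left out, and RB1 between 7 and 3 days at -0.0369 to 0.175. The cause was not tested, beyond the fewer samples or the added threshold. The replicate numbers did not pair the libraries (correlations of deviations 0.14, -0.1 and -0.292). The last value, for 7 and 3 days, means that these deviations ran partly opposite by number, and its source was not tested. A replicate block called 3, 5 and 4 members and 3943, 7546 and 4485 genes in the 3 comparisons, and it changed no member's call. This block models a shift shared by the same number only, so other structure between libraries was not examined. With 2 libraries a group, changes smaller than the intervals given were not detectable, and CCND2 was not detected at this depth.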

Other observations

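Over the 6 libraries, each member's nearest gene among 11380 with a mean of at least 100, by Euclidean distance of centred log2 values, was as follows. The nearest to CCND1 was TRIB1 (distance 0.0933), with 5706 and 5055 normalized counts in SB, 8110 and 7886 at 3 days and 7447 and 7325 at 7 days. RPS14, a ribosomal protein gene, was nearest to CDK4 (0.0515), PYGL, the liver glycogen phosphorylase, to CDC25A (0.111), and DSP, the desmosome protein desmoplakin, to CDK6 (0.124). PYGL had 8884 and 7756 normalized counts in SB, 7082 and 6756 at 3 days and 3729 and 3804 at 7 days. For CCNE2 it was VPS29 (0.0371), for CDK2 PAPD5 (0.0524), for RB1 SLC35A3 (0.0482), for CCND3 AKT1S1 (0.0773) and for CCNE1 RPL23AP82 (0.18). The nearest genes were picked by likeness over the same libraries, so their values are a description.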
